A study of Mus musculus with 11 samples.

Results

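The 10 transcription factor genes of distal hindlimb identity were followed in RNA of whole distal tibiae from 11 mice, 4 of them controls and 7 of them BMAd-DTA, each giving 1 library. The genes were Hoxa11, Hoxa13, Hoxd10, Hoxd11, Hoxd12, Hoxd13, Pitx1, Tbx4, Hand2 and Shox2, taken by symbol from the 22600 genes of the merged count table. Of these 10 genes, 9 had a row in that table and 6 were abundant enough to be tested among 16496 genes. Hoxd12 had no row there, and its counts were read from the per-library files.

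Mice of both groups were 24 weeks old, on a mixed C57BL6/SJL background, fed ad libitum, and carried Osterix-FLPo together with the FLPo-dependent Adipoq-Cre named FAC. Controls are labelled BMAd-WT. In BMAd-DTA mice Cre additionally releases diphtheria toxin A from the ROSA locus, which kills BM adipocytes, although the driver alleles also reach a small subset of marrow adipogenic precursors. Bones were cut at the tibia/fibula junction and powdered whole, so marrow, bone, attached tendon and any adhering muscle or joint tissue entered each library. Libraries held 16969529 to 18637663 counts in controls and 17128711 to 18432805 counts in BMAd-DTA mice, and no pair within a group agreed within sampling noise. The 12 osteoblast and osteocyte markers were all detected. Of 6 skin markers 2 had a row in the merged table, and their sum was 0.441 to 0.726 CPM in controls and 0.117 to 1.95 CPM in BMAd-DTA mice, mostly from Krt10, while Krt5 had at most 2 counts in any library. Summed skeletal muscle markers ran from 20.6 to 1414 CPM in controls and from 21.0 to 1095 CPM in BMAd-DTA mice. Synovium and joint markers were high in every library, with sums of 1591 to 3941 CPM in controls and 2476 to 4288 CPM in BMAd-DTA mice. Most of that sum was Prg4, at means of 2781 and 2928 CPM in the same order. Tendon markers summed to 143 to 212 CPM in controls and 165 to 299 CPM in BMAd-DTA mice. The part of joint or tendon tissue in the levels of the genes followed here was not tested.

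Limb cells keep a record of position in their transcription factors. Genes at the 5′ end of the HoxA and HoxD clusters are switched on late and distally in the limb bud, where the group 11 paralogues pattern the middle segment that becomes tibia and fibula and the group 13 paralogues pattern the foot. Pitx1 and its partner Tbx4 specify hindlimb, the counterpart of Tbx5 in the forelimb. Hand2 acts upstream of Sonic hedgehog at the posterior margin of the bud, and Shox2 is required for growth of the proximal limb skeleton and the cartilage of long bones. Adult skeletal and connective tissue cells retain much of this code.

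Upstream windows of 4 genes are shown because they carry the main contrasts, namely Hoxa13 and Hoxd13, whose RNA levels lay further apart than those of Hoxa11 and Hoxd11, and Hand2 and Shox2, which had the largest fold changes. Each is the 250 bases before the RefSeq transcription start, read 5′ to 3′ along the gene. Capitals mark CANNTG, the E-box core that bHLH proteins such as HAND2 bind and which reads the same on both strands, and TATAAA on the strand of the gene. The 2 motifs did not overlap in these windows.
Hoxa13 (GRCm38.p6, chr6:52260881-52261130, minus strand): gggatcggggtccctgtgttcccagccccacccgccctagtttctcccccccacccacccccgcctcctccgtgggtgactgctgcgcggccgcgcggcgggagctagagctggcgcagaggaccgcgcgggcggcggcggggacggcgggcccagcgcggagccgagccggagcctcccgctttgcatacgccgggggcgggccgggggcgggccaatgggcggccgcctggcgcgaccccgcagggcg
Hoxd13 (GRCm38.p6, chr2:74667975-74668224, plus strand): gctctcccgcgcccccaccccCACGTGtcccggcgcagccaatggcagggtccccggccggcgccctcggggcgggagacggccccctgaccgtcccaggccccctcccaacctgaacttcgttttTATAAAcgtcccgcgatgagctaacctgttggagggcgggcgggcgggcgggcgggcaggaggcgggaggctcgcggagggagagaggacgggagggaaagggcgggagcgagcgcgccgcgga
Hand2 (GRCm38.p6, chr8:57320733-57320982, plus strand): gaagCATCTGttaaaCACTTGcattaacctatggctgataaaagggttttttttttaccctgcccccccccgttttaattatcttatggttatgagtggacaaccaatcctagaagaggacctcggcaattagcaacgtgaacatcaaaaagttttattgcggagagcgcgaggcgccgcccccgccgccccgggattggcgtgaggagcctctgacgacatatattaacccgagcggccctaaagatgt
Shox2 (GRCm38.p6, chr3:66981772-66982021, minus strand): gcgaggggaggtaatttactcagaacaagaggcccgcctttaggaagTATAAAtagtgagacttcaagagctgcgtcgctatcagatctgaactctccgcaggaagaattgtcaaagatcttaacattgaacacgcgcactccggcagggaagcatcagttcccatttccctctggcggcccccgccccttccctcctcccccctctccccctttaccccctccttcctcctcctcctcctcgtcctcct

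The Hand2 window held 2 CANNTG matches, Hoxd13 1, and Hoxa13 and Shox2 0, while 66.2% of 32851 RefSeq windows of the same length held at least 1. TATAAA occurred once each in Hoxd13 and Shox2 and in 7.59% of all windows. The windows of Hoxa13 and Hoxd13 were both rich in CpG, with 35 and 31 dinucleotides against a median of 6 over all windows. Of the 10 genes, 9 had an entry in the promoter table, and Pitx1 had none.

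Along the Hox clusters, the distal tibia transcribed the 5′ end of HoxA and was almost silent at the 5′ end of HoxD. Levels between genes are compared as CPM per kilobase of exon, using the union of annotated exons. Hoxa11 ranked 1 and Hoxa13 ranked 4 of all 39 Hox genes on this scale, at means of 4.61 and 3.75 CPM per kilobase over 11 libraries. Hoxd10, Hoxd11, Hoxd13 and Hoxd12 ranked 29, 34, 35 and 37. Low counts were not confined to that end of HoxD, since Hoxd4, Hoxd3 and Hoxd1 ranked 30, 36 and 39. Hoxd3 (chromosome 2, 74711927 to 74748442) and Hoxd4 (74711929 to 74729160) overlap on the same strand. The effect of this overlap on their counts was not tested. Hoxd8 and Hoxd9 stood higher, at 16 and 22. Groups 1 to 8 summed to 6645 counts over 7 HoxA genes and 708 over 4 HoxD genes, Hoxd3 and Hoxd4 among them. The counts of the clusters therefore also differed outside their 5′ ends. In every library Hoxa11 lay above Hoxd11 and Hoxa13 above Hoxd13. Exons of Gm28309, on the same strand, cover 10.8% of the exonic bases of Hoxd11 and 5.7% of those of Hoxd10. Hoxa11, Hoxa13, Hoxd12 and Hoxd13 have no such overlap. The effect of this overlap on the HoxD counts was not tested.

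The counts behind this contrast differed by more than an order of magnitude in each library. Hoxa13 collected 1808 counts in all and Hoxd13 11, so that Hoxd13 made up 0.605% of the pair's counts (exact binomial 95% interval 0.302% to 1.08%, counting error only). Hoxd11 made up 2.15% of the counts of Hoxa11 and Hoxd11 together (1.57% to 2.87%), and Hoxd10 2.58% of those of Hoxa10 and Hoxd10 (1.99% to 3.3%). The 4 HoxD genes summed to between 7 and 17 counts per library, against 510 to 641 for Hoxa10, Hoxa11 and Hoxa13. Hoxa10 gave 2338 of the 6193 counts of these HoxA genes over all libraries. The part of marrow cells in them was not tested. The third limb-related cluster, HoxC, lay between them, since Hoxc10 and Hoxc11 reached 2.81 and 1.36 CPM per kilobase whereas Hoxc12 and Hoxc13 stayed at 0.062 and 0.075.

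**Figure D1:**
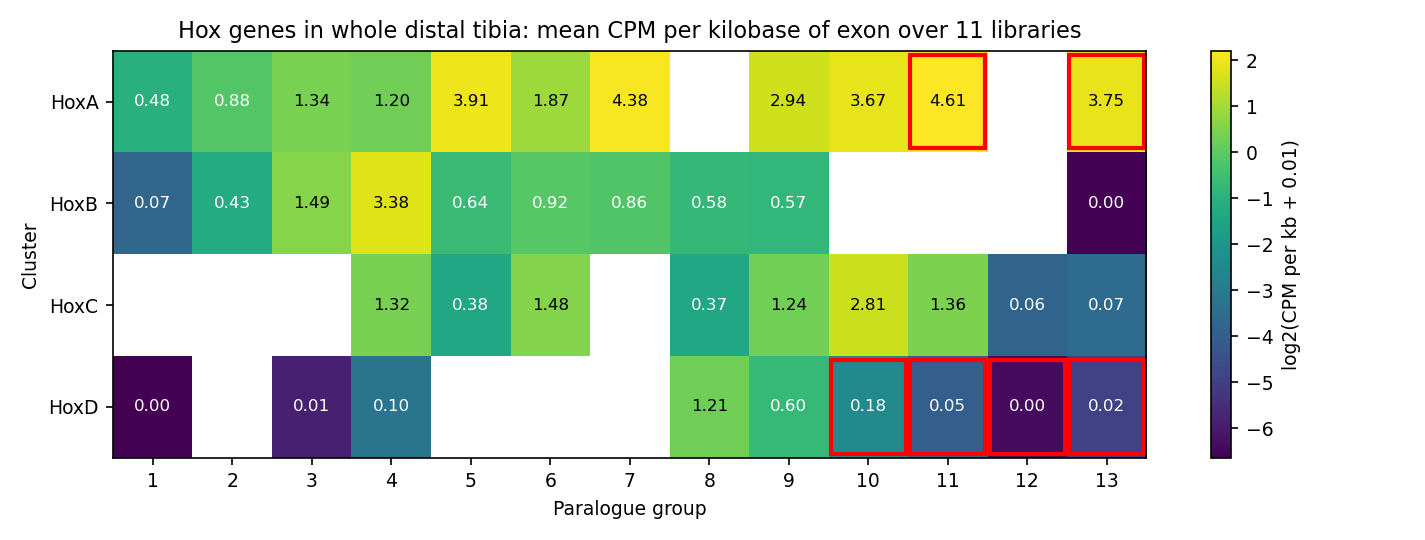
Mean level of each of the 39 mouse Hox genes, in CPM per kilobase of exon over 11 libraries, by cluster (rows) and paralogue group (columns). Colour is on a log2 scale, white marks paralogues that mice lack, and red frames mark the 6 Hox genes followed here. Hoxa11 and Hoxa13 are among the brightest cells and Hoxd10 to Hoxd13 among the darkest.

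Among the HoxD genes, Hoxd10 had 7, 5, 5 and 3 counts in the 4 controls and 7, 5, 2, 10, 8, 6 and 4 counts in the 7 BMAd-DTA mice. Hoxd11 had 2, 5, 7 and 3 counts in controls and 1, 2, 7, 4, 4, 1 and 9 in BMAd-DTA mice. Hoxd13 had 1, 3, 0 and 1 counts in controls and 0, 2, 0, 2, 1, 1 and 0 in BMAd-DTA mice. The groups overlapped for all of these genes, which lie head to tail on chromosome 2, from 74668310 at Hoxd13 to 74695105 at Hoxd10 (GRCm38). Hoxd12 was read once, in BMAd-DTA replicate 4, and a count of 0 in the other libraries allows up to 0.156 to 0.177 CPM in controls and 0.16 to 0.177 CPM in BMAd-DTA mice (3 counts per library). When low genes were kept in edgeR's quasi-likelihood fit, log2 fold changes (BMAd-DTA minus control) were 0.27 for Hoxd10 (95% interval -0.79 to 1.32), -0.11 for Hoxd11 (-1.52 to 1.30) and -0.48 for Hoxd13 (-2.67 to 1.71), with Benjamini-Hochberg adjusted p from 0.878 to 0.969. These intervals are wide, and a moderate difference in either direction was not detectable at this depth.

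The T-box genes matched the hindlimb label of the tissue. Tbx4 had 18 to 55 counts in every library, while the forelimb gene Tbx5 had 0 to 3, and Tbx4 was the higher of the pair in all 11 libraries. In the order of levels per kilobase of exon, Shox2 stood first at 6.81 to 16.4 CPM per kilobase and shared no part of its range with the next gene. Hoxa11 (3.42 to 5.66), Hoxa13 (2.55 to 5.36) and Pitx1 (2.26 to 5.12) formed a middle group whose ranges overlapped, then came Hand2 (0.151 to 1.35) and Tbx4 (0.304 to 0.884), which also overlapped and of which Hand2 was higher in 5 of 11 libraries. The HoxD genes came last, and among them each overlapped the next in the order. The highest of them, Hoxd10, reached at most 0.301 and lay below Tbx4 in all 11 libraries.

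Between genotypes, Hand2 and Shox2 had the largest differences of the 6 tested genes and both were higher in BMAd-DTA mice, but the quasi-likelihood test of edgeR called neither after adjustment over all genes. Hoxa13 leaned the same way, Hoxa11 and Tbx4 had nearly equal means, and Pitx1 had a lower mean in BMAd-DTA mice. None of the 6 was called at an adjusted p under 0.05, a call that 0.0788% of all tested genes received. Before adjustment 2 of 6, Hand2 and Shox2, had a p under 0.05, against 16.4% of all tested genes in either direction and 7.89% in the higher direction. DESeq2 called 1 of them, Hand2, against 5.42% of the genes to which it gave an adjusted p, and limma-voom and a robust quasi-likelihood fit called 0. The median log2 fold change of the 6 genes was 0.19 and that of all tested genes 0.0018.

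**Figure D2:**
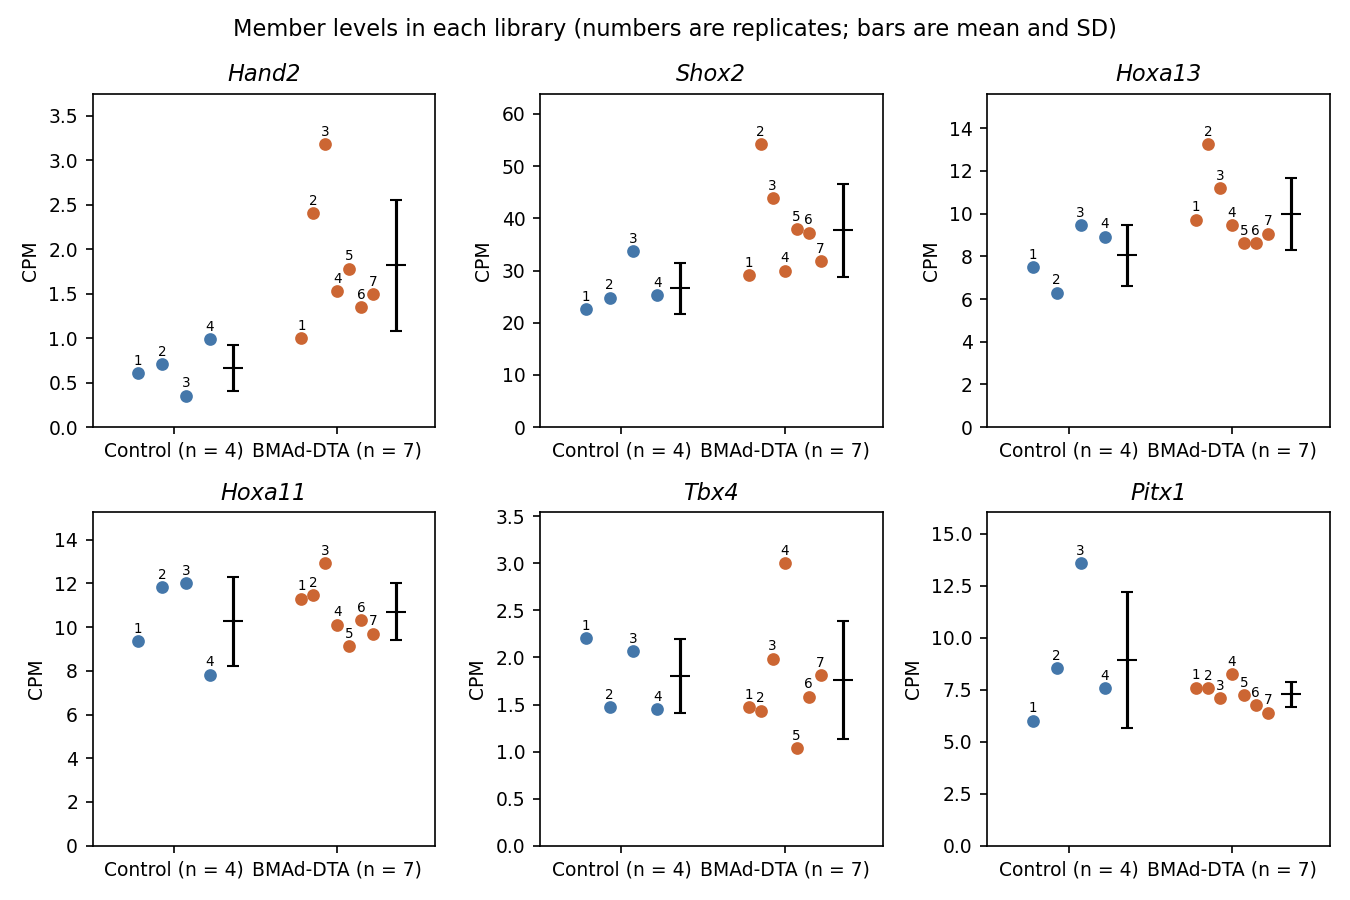
CPM of the 6 tested genes in each library, with controls (n = 4, blue) and BMAd-DTA mice (n = 7, orange) labelled by replicate number and the mean and SD of each group as bars. The 7 BMAd-DTA mice lie above every control for Hand2, narrowly for replicate 1, and the groups overlap in the other panels.

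Hand2, which encodes a bHLH factor best known from limb bud, heart and sympathetic neurons, was at 0.606, 0.707, 0.355 and 0.985 CPM in controls and at 1.002, 2.41, 3.18, 1.53, 1.78, 1.35 and 1.49 CPM in BMAd-DTA mice. No BMAd-DTA value fell below a control value, a separation seen in this direction for 1.78% of tested genes, but the gap between the highest control and BMAd-DTA replicate 1 was small. It closed when libraries were scaled by their totals alone, at 1.02 CPM in the highest control and 0.994 CPM in BMAd-DTA replicate 1. Controls averaged 0.663 ± 0.261 CPM (SD, n = 4) and BMAd-DTA mice 1.82 ± 0.738 CPM (SD, n = 7), a fitted ratio of 2.71 (95% interval 1.56 to 4.71), on 6 to 56 counts per library. The log2 fold change was 1.44 (standard error 0.37, 95% interval 0.64 to 2.24, Benjamini-Hochberg adjusted p = 0.0909 by quasi-likelihood in edgeR), and DESeq2 gave 1.45 (standard error 0.39, adjusted p = 0.0108).

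The position of Hand2 is chromosome 8, 57320983 to 57324633 of GRCm38, and 19.6% of its 2351 exonic bases lie opposite exons of the divergent transcript Hand2os1. Strand-specific counting kept them apart, with 273 pairs on the Hand2 strand and 28 on the other over all libraries. Hand2os1 itself had 0 to 11 counts per library and was below the filter. Of 7 sympathetic neuron markers 3 had a row in the merged table, with a sum of 8.98 to 17.5 CPM in controls and 7.83 to 14.1 CPM in BMAd-DTA mice. That sum was mostly Slc18a2, a monoamine transporter gene that mast cells and platelets also use, at 130 to 330 counts per library. Prph had 0 to 9 counts per library, and Th and Dbh, the genes of catecholamine synthesis, had totals of 1 and 4 counts over 11 libraries. Phox2a, the last of the 3, had 0 to 4 counts per library. It averaged 0.013 CPM in controls and 0.123 CPM in BMAd-DTA mice, and was below the filter. The part of such neurons in the Hand2 values was not tested.

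Shox2, the most abundant of the 10 genes, encodes a homeodomain factor of the limb skeleton (chromosome 3, 66971727 to 66981771). It was at 22.5, 24.8, 33.7 and 25.3 CPM in controls and at 29.1, 54.2, 43.9, 30.0, 37.9, 37.3 and 31.8 CPM in BMAd-DTA mice. Control replicate 3 lay among the BMAd-DTA mice, and the controls were all exceeded by 4 of 7 BMAd-DTA mice. The log2 fold change was 0.51 (standard error 0.17, 95% interval 0.14 to 0.87, adjusted p = 0.158 by quasi-likelihood in edgeR), a ratio of 1.42. DESeq2 gave an adjusted p of 0.0549 for the same gene.

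Hoxa13, a foot-level gene at chromosome 6, 52257694 to 52260880, was at 7.50, 6.30, 9.45 and 8.92 CPM in controls and at 9.72, 13.2, 11.2, 9.45, 8.61, 8.63 and 9.06 CPM in BMAd-DTA mice. Only BMAd-DTA replicates 1, 2 and 3 exceeded every control. Its log2 fold change was 0.31 (standard error 0.15, 95% interval -0.016 to 0.64, adjusted p = 0.326 by edgeR). Hoxa11, the tibia-level paralogue (chromosome 6, 52242106 to 52245810), was at 9.37, 11.8, 12.0 and 7.83 CPM in controls and at 11.3, 11.5, 12.9, 10.1, 9.13, 10.3 and 9.70 CPM in BMAd-DTA mice. These groups overlapped almost fully, and the log2 fold change of 0.063 had a 95% interval from -0.23 to 0.36 (adjusted p = 0.867 by edgeR). Exons of the antisense gene Hoxa11os cover 35% of the Hoxa11 exons, and the unstranded counts assigned it only 931 pairs against 2047 on its own strand.

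Tbx4 (chromosome 11, 85886422 to 85916097), the hindlimb T-box gene, was at 2.20, 1.47, 2.07 and 1.45 CPM in controls and between 1.03 and 3.005 CPM in BMAd-DTA mice, with a median of 1.58. The control values lay within the BMAd-DTA range, and the log2 fold change was -0.028 (95% interval -0.63 to 0.57, adjusted p = 0.975 by edgeR). Pitx1 (chromosome 13, 55825051 to 55836192), the hindlimb homeobox gene upstream of Tbx4, was at 6.01, 8.54, 13.6 and 7.57 CPM in controls and between 6.39 and 8.25 CPM in BMAd-DTA mice, with a median of 7.23. Its log2 fold change was -0.29 (95% interval -0.69 to 0.099, adjusted p = 0.451 by edgeR). The lower mean rested on Control replicate 3, since without that library the log2 fold change was -0.017. The largest sum of skeletal muscle markers, 1414 CPM, was also in Control replicate 3. The next largest, 1095 CPM, was in BMAd-DTA replicate 6, which had Pitx1 at 6.75 CPM. In a fit with a muscle covariate the log2 fold change of Pitx1 was -0.26. The part of muscle in the Pitx1 value of Control replicate 3 was not tested.

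**Figure D3:**
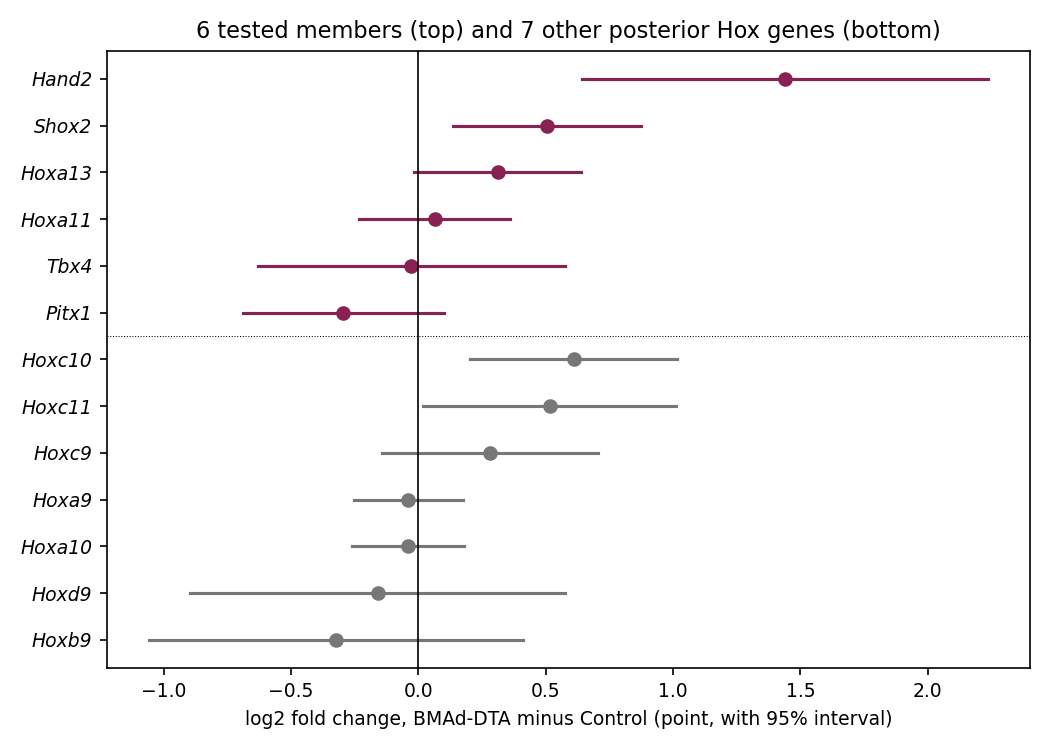
Log2 fold change, BMAd-DTA minus control, with its 95% interval for the 6 tested genes (purple, above the dotted line) and the 7 tested other Hox genes of groups 9 to 13 (grey). The intervals of Hand2, Shox2, Hoxc10 and Hoxc11 lie above 0, before adjustment over genes, and edgeR called none of the 13 genes at an adjusted p of 0.05.

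Hand2, Shox2 and Hoxa13 were highest in the same pair of mice. BMAd-DTA replicates 2 and 3 held the top levels of all of these genes and also the largest sums of the 12 osteoblast and osteocyte markers, 32390 and 37013 CPM. Over all libraries that sum ran from 3470 to 13711 CPM in controls and from 16682 to 37013 CPM in BMAd-DTA mice, so the groups did not overlap. Most of the sum was type I collagen. Col1a1 and Col1a2 averaged 4720 and 3869 CPM in controls and 12016 and 9255 CPM in BMAd-DTA mice. All 12 osteoblast, 10 of 10 periosteum and fibroblast and 8 of 8 tested chondrocyte markers had a positive log2 fold change. Of all 16496 tested genes, 8307 had a positive one. Sums for periosteum and fibroblast markers were 1184 to 1519 CPM in controls and 1472 to 2004 CPM in BMAd-DTA mice, and, in the same order, for chondrocyte markers 493 to 959 CPM and 1141 to 1385 CPM, whereas hematopoietic markers overlapped, at 22585 to 37005 CPM and 26777 to 35381 CPM. Adipocyte markers, all 10 with a negative log2 fold change, summed to 1140 to 1852 CPM in controls and 495 to 1373 CPM in BMAd-DTA mice, with 534 and 636 CPM in replicates 2 and 3. The same pair of mice had 3584 and 3137 CPM of marrow stroma markers, against 3176 to 4847 CPM in controls, and 21.0 and 28.4 CPM of muscle markers. These low sums were not particular to that pair. BMAd-DTA replicate 7 had 495 CPM of adipocyte and 3624 CPM of marrow stroma markers, with Hand2 at 1.49, Shox2 at 31.8 and Hoxa13 at 9.06 CPM. Muscle markers summed to 27.8 CPM in BMAd-DTA replicate 5 and 20.6 CPM in Control replicate 4. The part of each cell type in the 3 genes was not tested separately. With BMAd-DTA replicates 2 and 3 both left out, the log2 fold change was 1.10 for Hand2, 0.32 for Shox2 and 0.18 for Hoxa13, and edgeR gave adjusted p of 0.244, 0.359 and 0.638. In a fit with the mean log2 CPM of osteoblast and periosteum markers as a covariate, it was 0.54 for Hand2, -0.23 for Shox2 and -0.14 for Hoxa13, and edgeR gave an adjusted p of 0.998 for each. Because marker level and genotype run together, their parts cannot be told apart, nor can more cells of a type be told from more RNA per cell in whole bone.

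**Figure D4:**
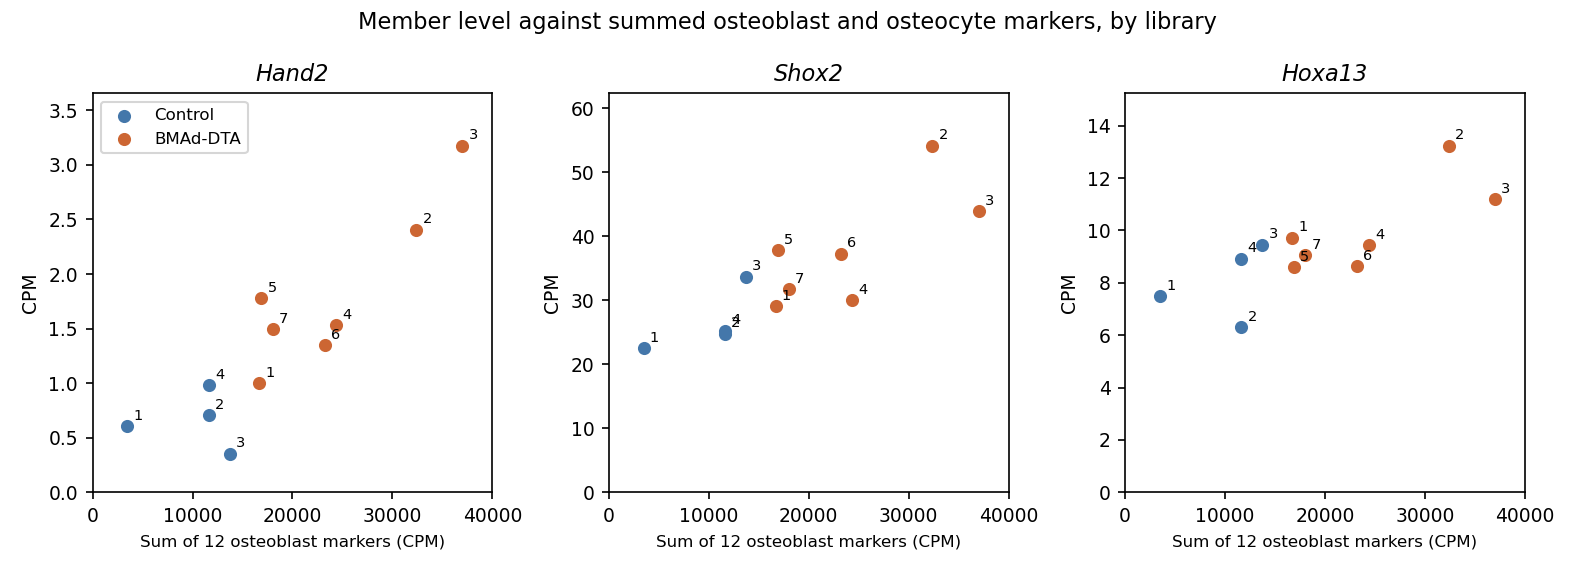
CPM of Hand2, Shox2 and Hoxa13 (vertical axes) against the summed CPM of 12 osteoblast and osteocyte markers (horizontal axis) in each library, numbered by replicate. Col1a1 and Col1a2 make up most of that sum. All BMAd-DTA mice (orange) lie to the right of all controls (blue), and BMAd-DTA replicates 2 and 3 are highest on both axes.

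Other limb patterning genes placed these values in context. Of 21 tested limb mesenchyme transcription factors, Shox2 among them, 18 had a positive log2 fold change, against 8307 of 16496 tested genes. The median of the 21 was 0.36. In edgeR 10 had an unadjusted p under 0.05, all higher, against 7.89% of all tested genes in that direction, and 0 were called after adjustment. DESeq2 called 7, all higher, against 5.42% in either direction of the genes given an adjusted p. Summed osteoblast and osteocyte markers did not overlap between the genotypes, and the part of bone-forming cells in these values was not tested. The ends of this list were Alx4 (log2 fold change 0.87, standard error 0.22), an anterior limb gene, and Lhx2 (-0.64, standard error 0.34), a gene of distal outgrowth. Twist1, a bHLH factor like Hand2 that was picked after its values were seen, averaged 7.22 ± 0.989 CPM in controls (SD, n = 4) and 11.4 ± 2.68 CPM in BMAd-DTA mice (SD, n = 7). Among 8 tested limb signalling genes the median was 0.16, between Bmp7 (0.97, standard error 0.18), which encodes a bone morphogenetic protein, and Grem1 (-0.61, standard error 0.31), which encodes a BMP antagonist of the limb bud. Shh, the target of Hand2 in the limb bud, had 0 to 6 counts per library. The 9 tested Hox cofactors of the MEIS, PBX and PKNOX families had a median of -0.14, from 0.23 for Meis3 to -0.30 for Meis2. Of 9 forelimb and limb field genes, 3 were tested, with Sall1 at 1.46 (standard error 0.63) and Fgf10 at -1.58 (standard error 0.51), both on at most 34 counts per library and neither called by edgeR after adjustment. Of the 7 other tested Hox genes of groups 9 to 13, the 3 of HoxC had positive log2 fold changes and the 4 of HoxA, HoxB and HoxD negative ones. At the ends, Hoxc10 had a log2 fold change of 0.61 (standard error 0.19, adjusted p = 0.133 by edgeR, 0.0376 from DESeq2) and Hoxb9 -0.32 (standard error 0.34). Hoxa9 and Hoxa10, the cluster neighbours of Hoxa11, stood at -0.039 and -0.041, with 95% intervals from -0.25 to 0.17 and from -0.26 to 0.18.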

How the data were processed

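Stranded paired-end libraries came from whole distal tibiae, 4 from controls and 7 from BMAd-DTA mice. According to their processing notes, the authors checked reads with FastQC 0.11.9, aligned them to mm10 with STAR, and deposited raw counts per gene, unnormalized, per library and merged. The annotation release is not given in the sources used here. The merged values are identical to the second-strand column in each library's own file, the strand that held 95.9% to 96.3% of stranded counts. Exon lengths and positions came from GENCODE M21 (GRCm38), and upstream sequences from RefSeq (GRCm38.p6).

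These counts went into edgeR 4.0.16 under R 4.3.3 (filterByExpr, TMM scaling, glmQLFit and glmQLFTest, genotype as the only term, two-sided, Benjamini-Hochberg adjustment over 16496 genes). CPM use the TMM-scaled library sizes. Intervals are 95% intervals of the fitted log2 fold change. DESeq2 1.42.0, limma 3.58.1, other scalings, filters, counts and covariates, and each mouse left out were alternatives. The merged table holds 22600 of 55401 genes. The steps were tested on simulated data.

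The genes and lists were chosen with earlier results of these data known. All 10 genes are named, and of each list those tested at either end of the log2 fold changes, with others named after their values were seen. Likeness is Pearson's r of log2 CPM (prior count 2) centred on group means, over tested genes averaging at least 50 counts.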

Additional observations from a re-analysis of the deposited data

How the results depend on the processing

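The log2 fold changes of Hand2 and Pitx1 kept their sign in all 23 and 24 alternatives, but Pitx1 ran from -0.96 with the osteoblast and periosteum covariate to -0.017 without Control replicate 3. Hand2 ran from 1.24 to 1.70 with 1 mouse left out (adjusted p from 0.0705 to 0.289 in edgeR's test) and passed 0.05 in DESeq2 only. Shox2 ran from 0.40 without BMAd-DTA replicate 2 to 0.64 without Control replicate 3. The osteoblast and periosteum covariate reversed Shox2 (-0.23), Hoxa13 (-0.14), Hoxa11 (-0.35) and Tbx4 (0.15), and the muscle covariate Tbx4 (0.054). Around 0, Tbx4 ran from -0.21 to 0.084 and Hoxa11 from -0.047 to 0.15 with 1 mouse left out, and Hoxa11 was -0.019 without BMAd-DTA replicates 2 and 3 (chosen after seeing the data). Called genes among the 6 were 1 in DESeq2 and 0 elsewhere. Over all genes, 13 were called, 845 by DESeq2, 20 by limma-voom and with RLE scaling, 32 by the robust fit, 3 with the muscle and 0 with the osteoblast covariate or without both BMAd-DTA replicates, and 0 to 292 with 1 mouse left out, the most without Control replicate 3. Of the other listed genes 2 were called, Alpl and Retn, then 23, 4, 1 and 0 by DESeq2, the robust fit and the muscle and osteoblast covariates, 0 without both BMAd-DTA replicates, and 0 to 12 with 1 mouse left out. The cause of these shifts was not tested. The 4 HoxD genes and Hand2 are limited by their low counts. No paired analysis was possible because the labels give no replicate numbers, and those used here only name the mice.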

Other observations

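The Hox genes outside the distal set ranged from levels near those of Hoxa11 to no counts at all. Hoxa7, Hoxa5 and Hoxb4, which are also expressed in blood progenitors, reached 4.38, 3.91 and 3.38 CPM per kilobase of exon, close to Hoxa11 and Hoxa13, and ranked 2, 3 and 6 of the 39 Hox genes. Hoxb13 and Hoxd1 had no counts in any library. Of 19 tested Hox genes of groups 1 to 8, log2 fold changes were positive in 11 and negative in 8 (median 0.042), from Hoxc4 (0.58, standard error 0.22) to Hoxb5 (-0.43, standard error 0.31), and edgeR called 0 after adjustment, with 1 at an unadjusted p under 0.05 and 0 called by DESeq2. Among the genes beside the HoxA and HoxD clusters, Evx1 had the largest log2 fold change, 0.63, and Mtx2, next to HoxD, the smallest, -0.23, and Evx2, which adjoins Hoxd13, had 5 counts over all libraries. Of 12 antisense or divergent transcripts of these loci 5 were tested, between Hoxaas3 at 0.43 and Hoxb3os at -0.63.

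Over the 11 libraries, with group means removed, the tested distal genes moved together only in part. The highest pairwise r among the 6 was 0.69, between Hoxa13 and Shox2, and the lowest -0.38, between Pitx1 and Hand2. The genes nearest to Shox2 were Cd200 (r = 0.95), Bambi (r = 0.93) and Pi15 (r = 0.91), and those nearest to Hand2 were Enpp6 (r = 0.95), Ahsa2 (r = 0.92) and Ogfod3 (r = 0.91). For Hoxa11 they were Bicc1, Srpr and Coro6 (r from 0.89 to 0.90), for Hoxa13 Cog3, Tyw3 and Cops6 (r from 0.91 to 0.97), for Pitx1 Fbln5, Osbpl5 and Zswim8 (r from 0.92 to 0.98) and for Tbx4 Ntrk3, Xylb and Zfp521 (r from 0.85 to 0.88). These are descriptions over 11 libraries that share tissue makeup and depth, with the nearest genes picked from all tested genes of sufficient count. Without centring, r with Pitx1 was 0.49 for Fbln5, 0.55 for Osbpl5 and 0.43 for Zswim8, and r of Hand2 with Ahsa2 was -0.19. The other named genes kept r of 0.76 (Ogfod3) or more. Pitx1 was highest in Control replicate 3, at 13.6 CPM, and the weight of that library in r was not tested.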
